A study of Mus musculus with 6 samples.

Results

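The genes described here are 9 components of the PI3K and phospholipase C-gamma branches of lymphocyte signalling: the phospholipases Plcg1 and Plcg2, the PI3K subunits Pik3cd and Pik3r1, the adaptors Pik3ap1, Gab1, Bank1 and Blnk, and the lipid phosphatase Inpp5d. They were chosen by name, with earlier results of these data known, and each was found by its symbol in the platform's probe annotation. All 9 of 9 were measured, each by exactly 1 probe set, among 19938 genes with a probe set that names a single gene. Expression was measured on 1-colour Affymetrix arrays in 6 samples of BCR-ABL1-transformed mouse pre-B cells of strain 129SvEv, the cells of a model of BCR-ABL1-driven acute lymphoblastic leukemia. In 3 samples the cells were wild type for Etv5, an ETS-family transcription factor, and in 3 they were knockout for it; cells of both genotypes carry the BCR-ABL1 kinase. The labels give no age and no allele, and they do not say if the replicates are different mice, cultures or clones, so the p-values cover only the variation among these 6 arrays, part of which may be technical.

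In a B cell precursor, the pre-B cell receptor and its kinases phosphorylate adaptor proteins, which gather signalling enzymes at the membrane. PI3K, a catalytic subunit bound to a regulatory one, makes the membrane lipid PIP3, which recruits AKT and TEC-family kinases and is dephosphorylated by lipid phosphatases such as the one that Inpp5d encodes. Phospholipase C-gamma cleaves the precursor lipid into diacylglycerol and inositol trisphosphate, which activate protein kinase C, RAS exchange factors and calcium release. In leukemia driven by BCR-ABL1, the fusion kinase feeds into the same adaptors and enzymes.

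Etv5 itself, the targeted gene, has a pair of probe sets. One read 9.30, 9.52 and 9.27 with Etv5 intact, against 8.97, 8.91 and 8.92 in the knockout samples (log2 signal; log2 change -0.43, limma adjusted p = 0.0467), and the other differed by 0.28 in the opposite direction (adjusted p = 0.13). Signal remained in the knockout on both, and which exons the allele lacks is not given in the sources used here, so these probe sets do not settle the genotype. Arrays of one genotype correlated across probe sets at r = 0.9939 to 0.9966 and arrays of different genotypes at 0.9914 to 0.9941. All 13 measured B cell precursor markers had signals above the dimmest 40% of probe sets, as did 4 of 12 myeloid, 4 of 11 T and NK cell, 4 of 7 erythroid and megakaryocyte and 4 of 11 stromal and endothelial markers. Of the B cell precursor markers, Pax5 rose (log2 change 0.43, limma adjusted p = 0.0127), Vpreb2 and Dntt fell (-0.32 and -0.37, adjusted p = 0.045 and 0.0132) and 10 did not pass; their summed linear signal ran from 105543 to 106993 in wild-type samples and from 106092 to 110450 in knockout samples. Of the 12 myeloid markers, Itgam and Ly6g rose (0.60 and 1.14, limma adjusted p = 0.0235 and 0.0156) and 10 did not pass, with a list median of -0.0098. Their sum ran from 1703 to 1811 in wild-type and from 1791 to 1950 in knockout samples. Without the risen pair it ran from 1484 to 1562 and from 1390 to 1459, lower in every knockout sample than in any wild-type sample. Of the 11 stromal and endothelial markers, Pecam1 rose (0.46, limma adjusted p = 0.00811) and 10 did not pass, with a median of -0.0105. Their sum ran from 3050 to 3304 and from 3489 to 3680, and without Pecam1 from 1731 to 1996 and from 1686 to 1935. The ranges without Pecam1 overlapped, but the genes left out of both lists were those that passed the same test. The reduced sums therefore cannot show whether cell content differed. Of the 11 T and NK cell markers, Zap70 rose (0.33, limma adjusted p = 0.047) and 10 did not pass, with sums of 1436 to 1539 and 1469 to 1645. None of the 7 erythroid and megakaryocyte markers passed limma, and 0 had an unadjusted p under 0.05; their sums were 1110 to 1205 and 1071 to 1162. The part of these markers in the results below was not tested. In bulk RNA, fewer cells of a type and less RNA per cell cannot be told apart.

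In the samples labelled knockout, 4 of the 9 genes rose, none fell and 5 did not pass. The risen genes were Plcg1, which encodes the gamma-1 phospholipase (1.70-fold), and the adaptor genes Bank1 (1.57-fold), Pik3ap1 (1.39-fold) and Gab1 (1.33-fold). Plcg2 and Pik3r1 had lower values in every knockout sample than in any wild-type sample, by 0.17 and 0.23 log2 units, without passing the test. Pik3cd, Inpp5d and Blnk had overlapping groups. The test was limma with Benjamini-Hochberg adjustment over all 35556 probe sets at 0.05, by which 3.08% of probe sets and 4.43% of the 19938 genes were called, 2.42% of genes as higher and 2.01% as lower in the knockout. The groups did not overlap in 6 of the 9 genes, 4 higher and 2 lower in the knockout, beside 20.5% of all genes, 10.2% in each direction. The median log2 change was 0.11 over the 9 genes and -0.0039 over all genes. Leaving out 1 sample at a time left 1 to 3 of the 9 called: 1 without wild-type sample 1, knockout sample 2 or knockout sample 3, 2 without wild-type sample 2, and 3 in the remaining fits.

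**Figure D1:**
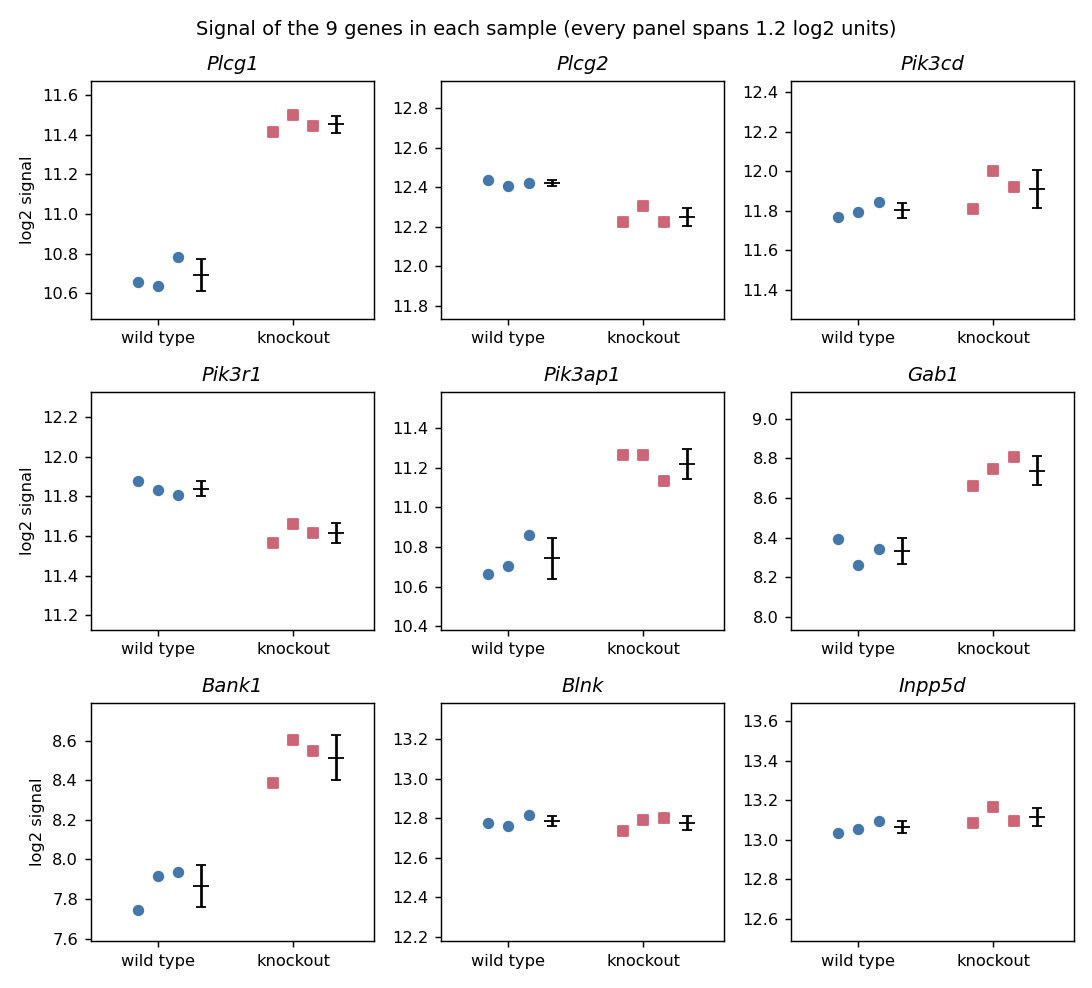
Log2 signal (vertical axis) of each of the 9 genes in the 3 wild-type samples (blue circles) and the 3 knockout samples (red squares), in order of sample number; black bars give the mean and SD (n = 3). Plcg1, Pik3ap1, Gab1 and Bank1 have all knockout samples above all wild-type samples, Plcg2 and Pik3r1 all below, and Pik3cd, Blnk and Inpp5d overlap; signal heights of different genes are not comparable.

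Of the gamma phospholipases, Plcg1 rose and Plcg2 did not pass the test. Plcg1 encodes the isoform that is best known downstream of the T cell receptor and of receptor tyrosine kinases. Its log2 signal was 10.66, 10.63 and 10.78 in wild-type samples 1 to 3, against 11.41, 11.50 and 11.45 in knockout samples 1 to 3. The lowest knockout sample exceeded the highest wild-type sample by 0.63 log2 units, several times the spread within either genotype (ranges of 0.148 for wild type and 0.0846 for knockout). The log2 change was 0.76 ± 0.061 (SE; 95% interval 0.61 to 0.91; limma adjusted p = 0.002), and by p-value Plcg1 stood at rank 181 of the 19938 genes. Leaving out any one sample kept the call (adjusted p 0.00582 to 0.017).

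Plcg2 encodes the isoform through which the B cell receptor mainly signals. Wild-type signals were 12.44, 12.41 and 12.42, against 12.22, 12.30 and 12.23 in the knockout samples. The wild-type samples were within 0.0313 log2 units of each other, and all 3 knockout samples were lower by a gap of at least 0.10. The log2 change was -0.17 ± 0.0496 (SE, 95% interval -0.29 to -0.05, limma adjusted p = 0.209), which did not pass over all probe sets. Groups apart with the knockout lower were found in 10.2% of all genes. The changes of Plcg1 and Plcg2 stand side by side here, and the difference between them was not tested.

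The promoters of this pair are shown because their genes encode the same enzymatic activity and differed in the test. Each window runs from 250 bases before to 50 after an annotated RefSeq start (GRCm38.p6), 5′ to 3′ on the gene's strand, with every GGAA or its complement TTCC, the core letters of ETS factor motifs, in capitals.
Plcg1, chr2:160731060-160731359, plus strand: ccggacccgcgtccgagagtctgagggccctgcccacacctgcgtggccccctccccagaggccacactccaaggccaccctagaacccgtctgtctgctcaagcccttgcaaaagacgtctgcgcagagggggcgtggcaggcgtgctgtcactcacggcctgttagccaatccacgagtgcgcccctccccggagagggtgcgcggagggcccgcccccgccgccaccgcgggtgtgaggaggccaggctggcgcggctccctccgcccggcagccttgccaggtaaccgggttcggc
Plcg2, chr8:117498025-117498324, plus strand: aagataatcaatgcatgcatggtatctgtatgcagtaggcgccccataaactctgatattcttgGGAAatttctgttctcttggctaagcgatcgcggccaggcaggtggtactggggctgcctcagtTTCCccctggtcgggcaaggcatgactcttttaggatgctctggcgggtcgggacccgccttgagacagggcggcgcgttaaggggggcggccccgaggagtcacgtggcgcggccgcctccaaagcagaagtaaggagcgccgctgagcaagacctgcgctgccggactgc
The Plcg1 window holds no GGAA on either strand, and its GC content is 72.0%. The Plcg2 window holds 2 matches, with the first letters 186 and 122 bases before the start. GGAA on either strand occurs in 96.0% of all 32851 promoter windows, with a median of 3 matches per window, so the presence of the core is the usual state of such a window.

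The PI3K subunit genes did not pass the test in either direction. Pik3cd encodes the catalytic delta subunit, the form typical of leukocytes. The wild-type samples gave 11.77, 11.79 and 11.84, and the knockout samples gave 11.81, 12.00 and 11.92. Knockout sample 1 fell among the wild-type values, and the log2 difference was 0.11 (95% interval -0.05 to 0.26; limma adjusted p = 0.711).

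Pik3r1 encodes the regulatory subunits that stabilise the catalytic ones and dock them on phosphorylated adaptors. Wild-type signals were 11.88, 11.83 and 11.81, against 11.56, 11.66 and 11.62 in the knockout samples, so that every knockout sample was below every wild-type sample. The log2 difference was -0.23 ± 0.0528 (SE; 95% interval -0.35 to -0.10), with a limma adjusted p of 0.111. Whether this gene passed depended on the setting. Pik3r1 passed in 5 of 15 alternative settings, among them the fit without the dimmest 40% of probe sets (adjusted p = 0.0453). It did not pass with a block on sample number (0.323) or with median centring (0.171). Nor did it pass in any of the 6 fits that left out 1 sample (0.155 to 0.37).

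Of the 4 adaptor genes, 3 rose. Bank1 encodes a B cell scaffold protein with ankyrin repeats that binds the kinase LYN and the inositol trisphosphate receptor. The wild-type samples gave 7.74, 7.91 and 7.94, and the knockout samples gave 8.39, 8.60 and 8.55. All 3 knockout samples exceeded all wild-type samples, by at least 0.45 log2 units, in a gene whose SD was 0.106 and 0.113. The log2 change was 0.65 ± 0.0842 (SE; 95% interval 0.44 to 0.85; limma adjusted p = 0.0125). The call was lost without wild-type sample 1, knockout sample 2 or knockout sample 3 (adjusted p = 0.0505, 0.053 and 0.0658). Its mean signal was brighter than 55.7% of all probe sets, and the array summary compresses differences in dim signals.

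Pik3ap1 encodes BCAP, which docks the regulatory subunit of PI3K on phosphorylated tyrosines after B cell receptor engagement. Wild-type signals were 10.67, 10.70 and 10.86, against 11.27, 11.26 and 11.13 in the knockout samples. The groups did not overlap, although the nearest samples across genotypes, both numbered 3, were 0.27 log2 units apart. The log2 change was 0.48 ± 0.0742 (SE; 95% interval 0.30 to 0.66; limma adjusted p = 0.0248). The call held in only 1 of the 6 fits that left out a sample, that without wild-type sample 3 (adjusted p = 0.0292); in the other 5 it was at most 0.114.

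Gab1 encodes a docking protein that receptor tyrosine kinases phosphorylate and that binds PI3K and the phosphatase SHP2. The wild-type samples gave 8.39, 8.26 and 8.34, and the knockout samples gave 8.66, 8.75 and 8.81, with a gap of 0.27 log2 units between the groups. The log2 change was 0.41 ± 0.0636 (SE; 95% interval 0.25 to 0.56; limma adjusted p = 0.0252). As for Pik3ap1, the call was lost in 5 of the 6 fits with a sample left out, and held without knockout sample 1 (adjusted p 0.0413; at most 0.113 elsewhere).

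Blnk encodes the linker that brings phospholipase C-gamma and the kinase BTK to SYK after pre-B cell receptor engagement. Wild-type signals were 12.78, 12.76 and 12.81, against 12.73, 12.79 and 12.80 in the knockout samples. The samples of both genotypes were interleaved. The log2 difference was -0.0087 with a 95% interval of -0.13 to 0.11 (limma adjusted p = 0.99), which bounds a change in either direction well below that estimated for Plcg1.

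**Figure D2:**
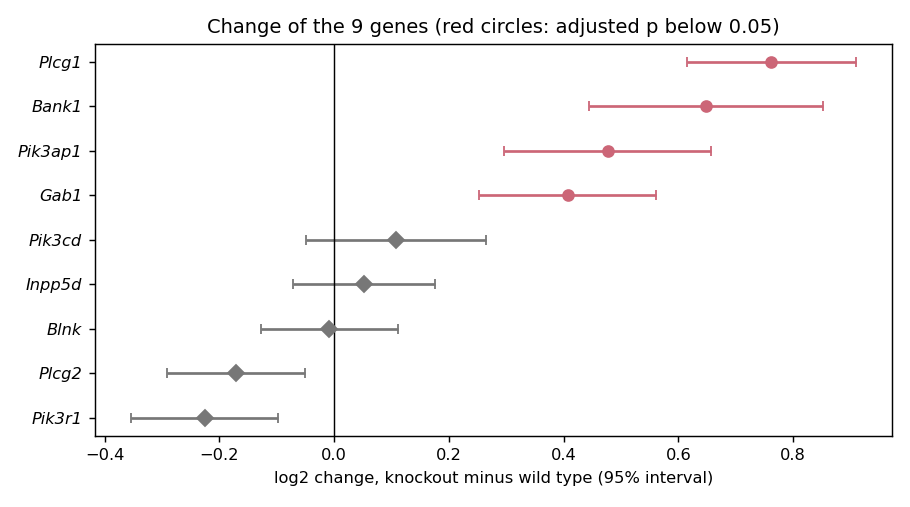
Log2 change between knockout and wild type (horizontal axis) for each of the 9 genes with the 95% interval from limma; red circles mark adjusted p below 0.05 and grey diamonds the rest. The 4 called genes lie between 0.41 and 0.76, and the other 5 between -0.23 and 0.11.

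The promoters of the 3 risen adaptor genes follow, shown with the same window and capitals because these genes rose together; for Gab1, which has a pair of overlapping windows in the table, the upstream one is given.
Bank1, chr3:136326017-136326316, minus strand: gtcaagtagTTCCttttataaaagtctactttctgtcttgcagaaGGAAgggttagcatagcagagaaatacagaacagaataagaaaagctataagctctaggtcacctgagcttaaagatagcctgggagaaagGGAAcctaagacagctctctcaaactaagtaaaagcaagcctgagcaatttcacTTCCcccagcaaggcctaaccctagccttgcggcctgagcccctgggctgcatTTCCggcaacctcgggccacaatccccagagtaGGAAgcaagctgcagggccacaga
Pik3ap1, chr19:41385053-41385352, minus strand: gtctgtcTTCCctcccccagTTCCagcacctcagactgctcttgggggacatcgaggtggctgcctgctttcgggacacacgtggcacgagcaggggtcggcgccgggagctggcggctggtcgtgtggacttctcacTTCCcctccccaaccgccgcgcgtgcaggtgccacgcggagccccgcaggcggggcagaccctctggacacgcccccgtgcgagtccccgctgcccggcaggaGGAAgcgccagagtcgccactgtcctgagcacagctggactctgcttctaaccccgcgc
Gab1, chr8:80880470-80880769, minus strand: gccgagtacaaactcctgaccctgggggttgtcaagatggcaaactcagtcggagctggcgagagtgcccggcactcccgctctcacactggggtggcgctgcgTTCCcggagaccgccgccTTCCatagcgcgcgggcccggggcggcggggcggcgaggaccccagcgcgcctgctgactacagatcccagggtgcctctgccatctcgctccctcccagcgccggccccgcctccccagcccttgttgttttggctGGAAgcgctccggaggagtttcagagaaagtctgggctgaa
The Bank1 window holds 6 matches to GGAA, and the one that begins 7 bases before the start is part of TTCCGG, which is CCGGAA on the opposite strand, the longer form preferred by many ETS factors. Pik3ap1 has 4 matches and Gab1 has 3. RefSeq windows were found for all 9 genes, 13 windows in all, and CCGGAA on either strand occurred in 1 of the 13, that of Bank1, beside 14.9% of all windows. The FOXO motif GTAAACA was in none of the 13 windows on either strand (3.65% of all windows). CCGGAA contains GGAA, so these counts overlap. A match is a description of the letters and not of binding, and a window without one says nothing of the factor.

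Inpp5d encodes SHIP1, the phosphatase of blood cells that converts PIP3 to a bisphosphate. The wild-type samples gave 13.04, 13.06 and 13.10, and the knockout samples gave 13.08, 13.17 and 13.10. Knockout samples 1 and 3 lay within the wild-type range, and the log2 difference was 0.05 (95% interval -0.07 to 0.18; limma adjusted p = 0.881).

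Beyond the 9 genes, 108 of 115 further pathway genes in 6 lists were measured by a single-gene probe set; the rest were not analysed here. Of the 108, 8 rose, 6 fell and 94 did not pass, beside 4.43% of all genes called, and the median log2 change was 0.03. The largest fall was that of Sgk1, a kinase activated downstream of PI3K (2.63-fold), and the largest rise that of Irs2, an insulin receptor substrate that docks PI3K (2.11-fold). The count of 14 became 6 without wild-type sample 1, 7 without wild-type sample 2, 9 without wild-type sample 3 and 7 without knockout sample 3.

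**Figure D3:**
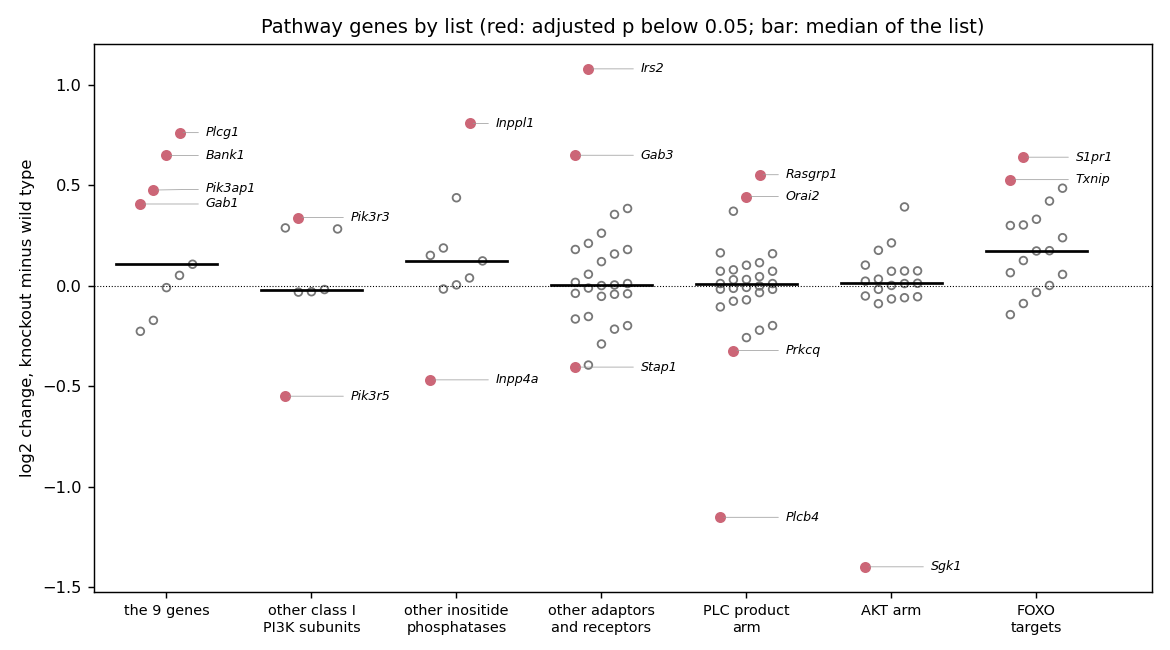
Log2 change between knockout and wild type (vertical axis) of the 9 genes and of the 108 measured genes of 6 pathway lists; red points passed at adjusted p below 0.05 and are named, open grey points did not pass, and black bars are list medians. Sgk1 (-1.40) and Plcb4 (-1.15) are the lowest points and Irs2 (1.08) the highest.

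Among 7 other class I PI3K subunit genes, 1 rose and 1 fell, beside 2.42% and 2.01% of all genes. Pik3r5, a regulatory partner of the gamma catalytic subunit, fell by 0.55 log2 units (limma adjusted p = 0.0159), and Pik3r3, a regulatory subunit related to Pik3r1, rose by 0.34 (adjusted p = 0.0317). The signal of Pik3r3 was dim, with a mean of 6.61 in wild-type and 6.95 in knockout samples, both below the 7.32 that bounds the dimmest 40% of probe sets. With 1 sample left out, Pik3r3 lost its call in 6 of 6 fits and Pik3r5 in 4, those without wild-type sample 1, 2 or 3 or knockout sample 3. The catalytic subunit genes Pik3ca and Pik3cg, named after their values were seen, differed by -0.03 and -0.02 (adjusted p = 0.955 and 0.985).

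Of 9 other phosphoinositide phosphatases, Inppl1 rose and Inpp4a fell, beside 2.42% and 2.01% of all genes. Inppl1 encodes SHIP2, the broadly expressed relative of the Inpp5d product. Wild-type signals were 10.46, 10.40 and 10.50, against 11.22, 11.32 and 11.24 in the knockout samples, a clear separation. Its log2 change was 0.81 ± 0.0561 (SE; limma adjusted p = 0.00121), 1.75-fold, and it passed in all 6 fits with a sample left out. Inpp4a, which acts on the bisphosphate that SHIP enzymes make, fell by 0.47 (adjusted p = 0.0237) and lost its call in 5 of those 6 fits, all but that without knockout sample 2.

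Of 27 other adaptors and receptors, Irs2 and Gab3 rose, Stap1 fell and 24 did not pass, beside 4.43% of all genes called. For Irs2 the wild-type samples read 8.04, 8.21 and 8.25 and the knockout samples 9.20, 9.23 and 9.31, and the change of 1.08 ± 0.0740 log2 units (SE) had a limma adjusted p of 0.00116. The groups were nearly 1 log2 unit apart and the call held with each sample left out. Gab3, of the same docking protein family as Gab1, rose by 0.65 (adjusted p = 0.00805; 0.0505 without wild-type sample 1). Gab2, named after its value was seen, differed by 0.18 (adjusted p = 0.451). Stap1, an adaptor that binds receptor kinases, fell by 0.40 (adjusted p = 0.0144) and lost its call without wild-type sample 1 or 2 or knockout sample 1 or 3. The Blnk relatives Clnk and Lcp2, also named after their values were seen, differed by 0.36 and -0.39 without passing (adjusted p = 0.267 and 0.0626).

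In the arm fed by phospholipase C products, 2 of 29 genes rose, 2 fell and 25 did not pass, beside 4.43% of all genes called. Plcb4, a phospholipase C of the beta class, which G proteins activate, read 8.43, 8.25 and 8.66 in wild-type samples, against 7.20, 7.36 and 7.32 in knockout samples. The wild-type samples were spread more widely than the knockout samples, but all lay above them. Plcb4 fell by 1.15 log2 units (SE 0.111; limma adjusted p = 0.00403), to a knockout mean of 7.29 within the dimmest 40%, so the size of the fall is uncertain. Rasgrp1, a RAS exchange factor activated by diacylglycerol, rose from 11.51 ± 0.0394 to 12.07 ± 0.0426 (SD, n = 3). Orai2, a calcium channel subunit, rose by 0.44 (adjusted p = 0.0235; lost in 5 of 6 fits with a sample left out, all but that without knockout sample 1), and Prkcq, a protein kinase C best known in T cells, fell by 0.32 (adjusted p = 0.0441; lost in 6 of 6). The protein kinase C gene of B cells, Prkcb, named after its value was seen, differed by 0.03 (adjusted p = 0.959).

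In the AKT arm, 1 of 19 genes passed, beside 4.43% of all genes. For Sgk1 the wild-type samples read 9.62, 9.74 and 9.58 and the knockout samples 8.15, 8.35 and 8.23. Its log2 change was -1.40 ± 0.0744 (SE; limma adjusted p = 0.000469), and the call held with each sample left out (highest adjusted p 0.00532). The AKT genes Akt1 and Akt2 and the kinase gene Pdpk1, named after their values were seen, differed by 0.01, 0.18 and -0.09 without passing (adjusted p = 0.988, 0.452 and 0.623).

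FOXO factors are kept out of the nucleus by AKT, and the last list held 17 measured genes known as their targets, most of them induced. Of these, Txnip, an inhibitor of glucose uptake, rose by 0.53 (limma adjusted p = 0.00476), and S1pr1, a receptor for lymphocyte egress, rose by 0.64 (adjusted p = 0.0427). The other 15 did not pass, beside 4.43% of all genes called. In 11 of the 17 all knockout samples were above all wild-type samples and in 1, the cyclin gene Ccnd2, all were below, beside 10.2% of all genes each way. The log2 change was positive in 14 of the 17, beside 9603 of all 19938 genes. Rag1 and Bcl6, like Ccnd2 named after their values were seen, differed by -0.14 and -0.03 without passing (limma adjusted p = 0.778 and 0.979). FOXO activity was not measured, and its part in these values was not tested. The median log2 change was 0.18, against -0.0039 for all genes, and 0.17 under quantile normalization, median centring or cyclic loess. The number that rose was 2 in the main fit, 2 after median centring, 6 after quantile normalization and 5 after cyclic loess. Among all probe sets, 580, 538, 727 and 713 rose in these settings, in that order. Without 1 sample, S1pr1 lost its call in 5 of 6 fits, all but that without knockout sample 1, and Txnip in 0.

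The genes whose 6-sample profiles came nearest to those of the 4 risen members were found by the root mean square difference between profiles, each centred on its own mean, among 12062 other genes outside the dimmest 40%. For Plcg1 these were the ETS factor gene Spib (0.0261 log2 units), the cytokine feedback inhibitor gene Cish (0.0326) and Inppl1 (0.0347). For Bank1 they were the kinase gene Mapkapk3 (0.0297), Wsb2 (0.0377) and the fatty acid desaturase gene Scd1 (0.042). The nearest profiles to Pik3ap1 were those of Entpd7 (0.0304), Cand2 (0.0338) and the nuclear receptor gene Ppard (0.0395), and to Gab1 those of Cnksr3 (0.0337), Nucb2 (0.0349) and Naglu (0.0382). All 12 were higher in the knockout, with log2 changes from 0.38 (Nucb2) to 0.81 (Inppl1); with 6 samples in 2 genotypes, such nearness mostly describes a like difference between genotypes.

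**Figure D4:**
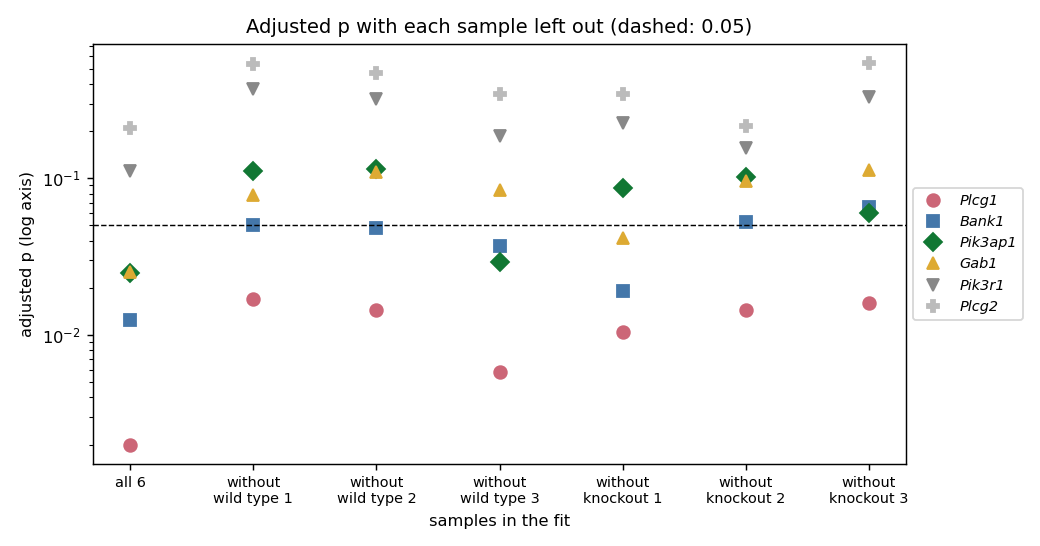
Benjamini-Hochberg adjusted p from limma (vertical log axis) for 6 of the genes in the fit of all 6 samples and in each fit that leaves out the named sample; the dashed line is 0.05. Plcg1 stays below the line throughout, Bank1 crosses it in 3 fits, Pik3ap1 and Gab1 in 5 each, and Pik3r1 and Plcg2 stay above it.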

How the data were processed

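The deposited table holds log2 signals of 35556 probe sets in 6 samples; per the submitters' processing notes the authors used RMA (a method of background correction, quantile normalization and probe-set summary) and Partek 6.5. Values from 2.58 to 14.7 set the scale as log2. The chip definition, filters and genome build were not stated in these sources. The table has no detection calls. The number of arrays limits the precision.

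Genotypes came from sample titles. Of the probe sets, 21789 had 1 gene symbol in the platform annotation, 1621 several and 12146 none; a gene with several was represented by its brightest. Knockout and wild type were compared with limma 3.58.1 in R 4.3.3 (lmFit, eBayes, no covariate or filter), adjusted over all probe sets at 0.05, with changes as knockout minus wild type and moderated standard errors. An exact permutation test of 3 against 3 cannot go below 0.10 and was not used. On simulated data with these arrays' spread (35556 probe sets), 47% of 100 changes of 0.5 and 95% of 100 changes of 1 log2 unit were recovered, and 4.05% of calls were false. The adjustment depends on how many probe sets change, and the real fit called 1095, so these rates may not carry over.

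The 9 genes, the pathway and marker lists and the tests were chosen with earlier results of these data known. Pathway genes were named if they passed, and nearest profiles leave out predicted, olfactory, vomeronasal, small RNA and immunoglobulin genes; exceptions are marked. Protein sequences and an EBF1 motif, planned at first, are not reported here. The alternatives were a block on sample number, the dimmest 40% left out, single-gene probe sets only, quantile normalization, median centring, cyclic loess, array weights, a robust fit with a variance trend, other thresholds, averaged probe sets per gene, and each sample left out.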

Additional observations from a re-analysis of the deposited data

How the results depend on the processing

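All 9 changes kept their direction in every alternative tried, except Blnk, whose difference near 0 was 0.0085 with array weights and ranged from -0.0225 to 0.0128 with 1 sample left out. The call of Plcg1 held in all 15 alternatives (adjusted p 0.000137 to 0.0241). Over its alternatives the adjusted p ran from 0.00143 to 0.0658 for Bank1, 0.00426 to 0.133 for Pik3ap1, 0.00503 to 0.123 for Gab1, 0.0236 to 0.37 for Pik3r1 and 0.0339 to 0.544 for Plcg2. Plcg2 passed only with a variance trend and robust settings (0.0339), where Pik3r1 passed too (0.0236).

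Sample numbers are shared between genotypes. Deviations of same-numbered samples correlated at -0.12, 0.0162 and 0.259, and those of differently numbered samples at -0.349 to 0.311. With 3 samples per genotype these values cannot show whether same-numbered samples share a source, which the labels do not give. With the replicate block, 544 probe sets, 2 of the 9 genes (Plcg1 and Bank1) and 7 pathway genes were called, in place of 1095, 4 and 14; the cause was not tested. The fits with 1 sample left out called 565 to 857 probe sets, 1 to 3 of the 9 genes and 6 to 14 pathway genes, with fewer samples in each fit. At 0.01 the counts were 538, 1 and 7, and at 0.10 they were 1475, 4 and 23. Without the dimmest 40%, 22 pathway genes and 1294 probe sets were called, and with single-gene probe sets only 28 and 1394 (both test fewer probe sets). The counts were 25 and 1398 after quantile normalization, 21 and 1351 after cyclic loess, and 13 and 1048 after median centring. With the variance trend and robust settings they were 24 and 1363, and with array weights 24 and 1452. Calls thus also moved over all probe sets. Apart from the fits that test fewer probe sets, the cause was not tested. Each of the 9 genes has 1 probe set, so averaging probe sets left their values as they were and changed only the number of tests and the moderated variances.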

Other observations

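Blnk and Pik3ap1 lie on chromosome 19 with 4 protein-coding genes between them in the gene table of GRCm38.p6; this neighbourhood was picked after the values were seen. In order, Blnk differed by -0.0087, Dntt, which encodes the terminal transferase of V(D)J joining, fell by 0.37 (limma adjusted p = 0.0132), Opalin differed by -0.02, Tll2 by -0.14 and Tm9sf3 by 0.01 (adjusted p = 0.994, 0.768 and 0.988), and Pik3ap1 rose by 0.48. Opalin was dim in both genotypes (5.94 and 5.92).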
